A study of Mus musculus with 9 samples.

Results

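The 7 genes described here carry adenosine through its extracellular life, and were taken by symbol from the 46517 genes of the table: Entpd1 and Nt5e (surface enzymes), Ada (a deaminase), Adora2a, Adora2b and Adora3 (receptors) and Slc29a1 (a transporter). RNA was sequenced from sorted neutrophils of C57BL/6 mice on day 27 after cells of a tumor line were placed in the pancreas. That line came from a mouse model of pancreatic ductal adenocarcinoma and was made to express luciferase. There were 3 libraries from bone marrow (labelled Ly6G.hi), 3 from blood and 3 from the tumor (both labelled Ly6G+). All cells were sorted as DAPI-, CD45+, negative for CD3, B220 and NK1.1, and positive for Ly6G and Ly6C. The methods describe a pool of 5 tumor-bearing mice for each of 3 independent experiments. Males and females were used in the study, and an age for these mice was not given in the sources used here. Every library came from tumor-bearing animals, so bone marrow and blood served as the comparison for the tumor, and no tumor-free library was compared.

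ATP that leaves stressed or dying cells is a danger signal. CD39, the product of Entpd1, cuts ATP and ADP down to AMP, and CD73, the product of Nt5e, turns AMP into adenosine. Adenosine then acts on G protein coupled receptors, is carried into the cell by equilibrative transporters such as ENT1 (Slc29a1), or is deaminated to inosine by Ada. The A2 receptors (Adora2a and Adora2b) raise cAMP, which damps many neutrophil and T cell functions, whereas Adora3 couples to inhibitory G proteins. CD73-made adenosine is a known restraint on lymphocytes in solid tumors, including those of the pancreas.

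Promoter sequence is shown for 3 of the genes because each had its highest RNA in a different compartment: Entpd1 in blood, Ada in bone marrow and Slc29a1 in the tumor. RefSeq windows on GRCm38.p6 matched 6 of the 7 genes (14 transcript starts), and only the bases upstream of the start are given, 5′ to 3′ on the gene's strand. Capitals mark CGTCA, the core of a cAMP response element, in Entpd1 (start 2, chr19:40659520-40659769, plus strand). They mark GGGCGG, a GC box, in Ada (chr2:163750240-163750489, minus strand). In Slc29a1 (start 5, chr17:45595611-45595780, minus strand, with the 80 bases next to the start left out) they mark ACGTG, the core of a hypoxia response element, and GGGCGG.
Entpd1: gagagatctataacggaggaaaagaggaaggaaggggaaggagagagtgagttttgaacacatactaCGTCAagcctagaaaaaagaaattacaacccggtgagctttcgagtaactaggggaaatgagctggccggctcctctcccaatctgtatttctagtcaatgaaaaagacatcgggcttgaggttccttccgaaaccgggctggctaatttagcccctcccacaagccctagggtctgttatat
Ada: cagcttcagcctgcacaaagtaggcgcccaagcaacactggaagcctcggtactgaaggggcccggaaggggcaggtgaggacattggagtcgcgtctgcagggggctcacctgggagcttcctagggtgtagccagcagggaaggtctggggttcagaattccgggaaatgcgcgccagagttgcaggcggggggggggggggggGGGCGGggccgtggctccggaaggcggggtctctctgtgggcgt
Slc29a1: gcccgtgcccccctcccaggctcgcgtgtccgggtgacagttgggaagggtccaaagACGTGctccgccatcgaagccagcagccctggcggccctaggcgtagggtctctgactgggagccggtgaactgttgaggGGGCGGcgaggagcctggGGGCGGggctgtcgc
The first base of CGTCA lay 183 bases upstream of the Entpd1 start, that of GGGCGG 44 bases upstream of the Ada start, and that of ACGTG 193 bases upstream of the Slc29a1 start. Both strands were searched for 4 motifs, which can overlap one another. ACGTG or CACGT stood in 16.6% of 32851 windows of 250 bases, TGACG or CGTCA in 17.8%, GGGCGG or CCGCCC in 32.7% and the AP-1 site TGACTCA or TGAGTCA in 4.46%. Of 8 Slc29a1 starts, 3 held the hypoxia core. Start 5, the window shown, had the most matches to the 4 motifs (6 in its 250 bases), while starts 1, 3 and 8 had 0. Both Entpd1 starts held CGTCA, Nt5e held 4 GC boxes, Adora2b held 6 GC boxes, and Adora3 held an AP-1 site 98 bases upstream. All 250 bases of the Nt5e window lay in annotated exons. The starts used for Adora3, Entpd1 (start 2) and Slc29a1 (start 5) lay inside the gene intervals given below. These are matches of letters only.

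Whole reads were recovered from the deposited log2 FPKM values (fragments scaled to gene length and library size). Bone marrow libraries had totals of 7108871 to 7949367, blood libraries 4580807 to 6830374 and tumor libraries 5446499 to 6969557 reads. Of 17714 genes tested, 54.9% differed between tumor and blood, 46.5% between tumor and bone marrow and 31.8% between blood and bone marrow (limma, Benjamini-Hochberg adjusted p under 0.05). Of the genes called, 61.6% were higher in tumor than in blood and 58.0% higher in tumor than in bone marrow. Median centring of the libraries turned these shares to 41.4% and 41.1%, and plain library totals gave 74.0% for both. The median gene stood 0.50 higher in tumor than in blood on the log2 scale with the authors' scaling, -0.25 with median centring and 0.90 with plain totals. Against bone marrow these medians were 0.29, -0.19 and 0.72. Neutrophil markers were abundant throughout: the 10 mature markers summed to 53465 to 57576 RPM (reads scaled to library size) in bone marrow, against 42603 to 45789 in blood and 10627 to 13500 in the tumor. The 9 immature markers (primary and secondary granule genes) summed to 95839 to 109760 RPM in bone marrow, against 3696 to 4573 in blood and 6564 to 9952 in the tumor.

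Markers of other cells also moved between compartments. All 9 markers of pancreatic tumor epithelium had reads in the tumor libraries, with sums of 2610 to 4934 RPM. In bone marrow 8 of them had reads (10.4 to 13.2 RPM, Cldn4 at 0), and in blood all 9 (25.4 to 174 RPM, the highest in blood library 2). All 8 fibroblast markers had reads in the tumor (972 to 1116 RPM). In bone marrow 7 did (5.83 to 12.5 RPM, Pdgfra at 0), and in blood 6 (1.92 to 7.09 RPM, Lum and Pdgfrb at 0). Endothelial sums were 141 to 162 RPM in the tumor, 103 to 154 in blood and 18.4 to 28.1 in bone marrow. In blood this sum was mostly Vwf (305 to 602 reads) and Pecam1 (138 to 235 reads), while Kdr, Emcn and Eng had at most 7 reads and Cdh5 and Tek were at 0. Acinar markers summed to 494 to 1905 RPM in the tumor and to at most 8.95 elsewhere. Macrophage and monocyte sums were 1553 to 1728 RPM in blood (9 of 10 with reads, Ms4a7 at 0), 608 to 627 in bone marrow and 419 to 571 in the tumor (all 10 in both). The higher sum in blood was mainly Csf1r (4796 to 6885 reads), Apoe and Cd68, while Ccr2 had 229 to 393 reads in blood and 546 to 952 in bone marrow. Platelet markers, all 7 with reads in each compartment, summed to 779 to 1072 RPM in blood, 10.1 to 14.2 in bone marrow and 3.55 to 12.6 in the tumor. T and NK cell markers stayed at or below 47.6 RPM in every library, and in the tumor Foxp3, Ncr1 and Klrb1c were at 0. Fewer cells of a type and less RNA per cell cannot be told apart in such bulk libraries.

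The adenosine genes did not all move one way. Blood libraries had the most Entpd1 and the least Nt5e and Slc29a1 RNA. Bone marrow libraries had the most Ada, and tumor libraries the most Slc29a1. Nt5e was within the range of 111 to 158 RPM in both bone marrow and tumor. The receptors gave few reads in every library. Between tumor and blood 4 of the 7 genes were called, 2 higher (Nt5e, Slc29a1) and 2 lower (Entpd1, Adora3), beside 54.9% of all genes called (33.8% higher and 21.1% lower). Between tumor and bone marrow 4 were called, 3 higher (Entpd1, Adora2a, Slc29a1) and 1 lower (Ada), beside 46.5% of all genes (26.9% and 19.5%). Between blood and bone marrow 4 were called, 1 higher (Entpd1) and 3 lower (Nt5e, Ada, Slc29a1), beside 31.8% (13.7% and 18.1%). Without blood library 2, which had the highest epithelial sum in blood, the counts were 4, 3 and 4. The counts are thus near the shares over all genes for the tumor comparisons. Median log2 changes of the 7 were 0.07, 0.26 and -1.88 in that order of comparisons, beside 0.50, 0.29 and 0.00 over all genes. All 7 passed the filter on low reads. The tumor and blood libraries each enter more than 1 of these comparisons.

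**Figure D1:**
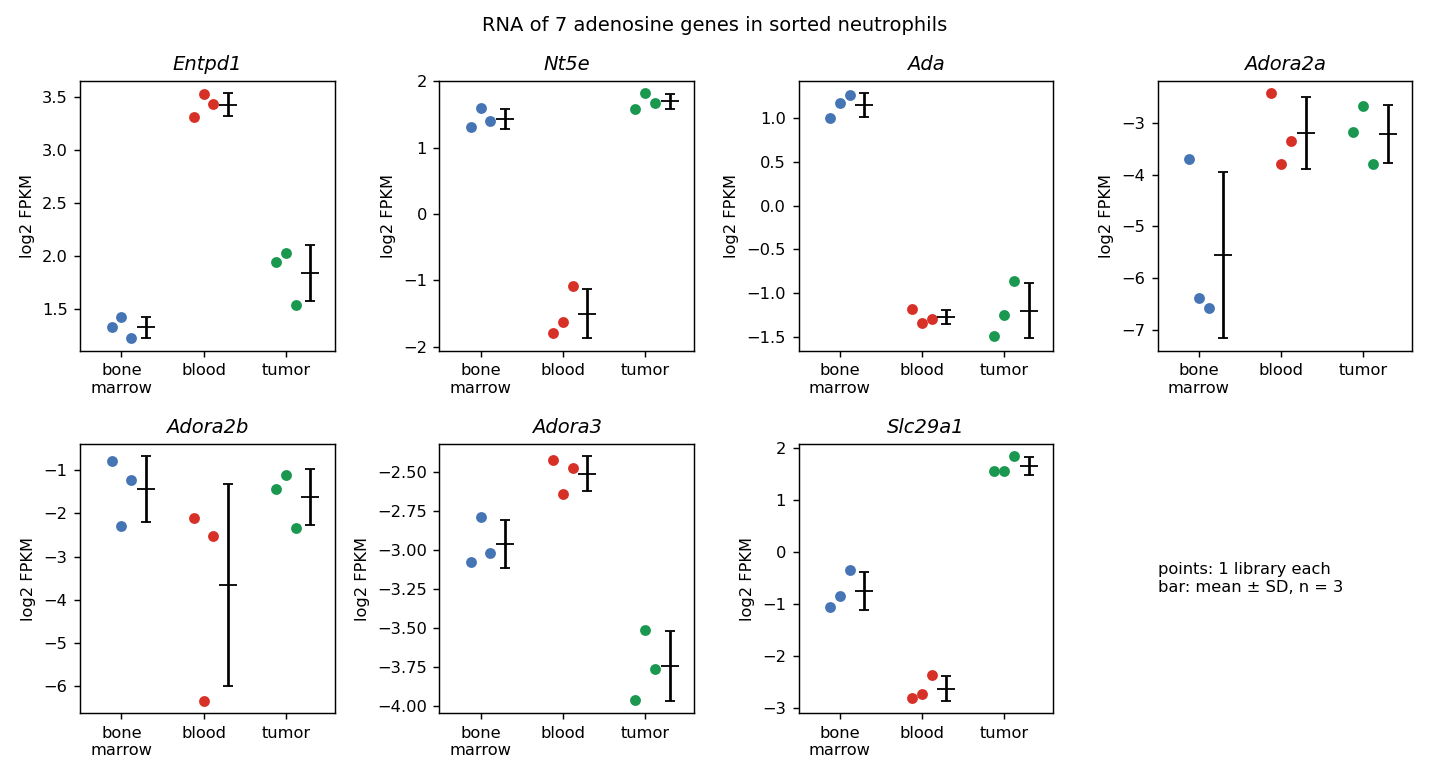
Deposited log2 FPKM of each gene by compartment, 1 point per library, with the mean and SD (n = 3) as a black bar; each panel has its own vertical scale. Entpd1 peaked in blood (mean 3.43), Ada in bone marrow (1.14) and Slc29a1 in the tumor (1.65), while Nt5e was low only in blood (-1.50).

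Entpd1 (ENSMUSG00000048120.15, GRCm38 chr19:40612366-40741602, plus strand) was the most abundant of the 7 per exon kilobase in every compartment. By deposited log2 FPKM, Nt5e stood higher in bone marrow (mean 1.43 against 1.32). The libraries gave 2171, 1958 and 1996 Entpd1 reads in bone marrow, 5093, 8358 and 6568 in blood, and 3088, 3991 and 2977 in the tumor. Scaled, these were 325, 346 and 301 RPM in bone marrow, 1289, 1497 and 1401 RPM in blood, and 498, 528 and 375 RPM in the tumor. The 3 compartments did not overlap, with blood highest and bone marrow lowest. Blood stood 4.31-fold above bone marrow (log2 2.11, SE 0.14, adjusted p = 2.32e-06). Tumor libraries had 3.02-fold less than blood (log2 -1.59, SE 0.14, adjusted p = 5.78e-06). Against bone marrow the tumor was 1.43-fold higher (log2 0.51, SE 0.14, adjusted p = 0.0109). The call of that last, small difference was lost in 4 of 23 alternatives. It was lost without tumor library 1 (log2 0.46, adjusted p = 0.0518) and with median centring (log2 0.03, adjusted p = 0.877). It was also lost without the variance trend (adjusted p = 0.0708) and with an absolute log2 change of at least 1 required. Both blood comparisons kept direction and call under all 23 alternatives. In rank, 99.2% of tested genes were below Entpd1 in blood, 98.5% in the tumor and 96.6% in bone marrow, by mean RPM without division by gene length. The platelet markers, and Csf1r, Apoe, Vwf and Pecam1 of the monocyte and endothelial lists, were also higher in blood than in bone marrow, and their part in the Entpd1 values was not tested. The Entpd1 interval holds Gm16027, which had 6 to 13 reads in blood and 0 to 2 elsewhere, and Gm8783, with 4 to 20 reads in all libraries.

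Nt5e (ENSMUSG00000032420.7, chr9:88327197-88372092, plus strand), whose enzyme makes the adenosine, ran against Entpd1. Its libraries gave 740, 766 and 785 reads in bone marrow, 51, 81 and 99 in blood, and 836, 1195 and 1139 in the tumor. Scaled, these were 111, 135 and 118 RPM in bone marrow, 12.9, 14.5 and 21.1 RPM in blood, and 135, 158 and 143 RPM in the tumor. Every blood library was far below all 6 others, and the bone marrow and tumor ranges met. Nt5e fell by 2.93 on the log2 scale from bone marrow to blood (7.64-fold lower, SE 0.19, adjusted p = 1.85e-06). In the tumor it was 9.16-fold higher than in blood (log2 3.19, SE 0.19, adjusted p = 4.2e-07). Tumor against bone marrow gave log2 0.26 (95% confidence interval -0.15 to 0.67, adjusted p = 0.278). Scaling moved that last value between -0.22 (median centring) and 0.71 (plain totals, adjusted p = 0.0071), while the blood comparisons kept their calls in all 23 alternatives. Fibroblasts, many of which carry CD73, had high markers in the tumor alone. Their sums were 972 to 1116 RPM there, at most 12.5 in bone marrow and at most 7.09 in blood. The part of these other cells in the tumor value was not tested.

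Ada (ENSMUSG00000017697.3, chr2:163726584-163750239, minus strand), which removes adenosine, was a bone marrow gene here. The libraries gave 315, 302 and 377 Ada reads in bone marrow, 41, 52 and 45 in blood, and 52, 75 and 103 in the tumor. In RPM these were 47.1, 53.4 and 56.8 in bone marrow, 10.4, 9.31 and 9.60 in blood, and 8.38, 9.92 and 13 in the tumor. The bone marrow libraries stood clear of all others, and blood and tumor overlapped. Ada was 5.34-fold lower in blood (log2 -2.42, SE 0.21, adjusted p = 1.5e-05) and 5.08-fold lower in the tumor (log2 -2.35, SE 0.21, adjusted p = 8.7e-06) than in bone marrow. Both calls held in all 23 alternatives. Tumor against blood gave log2 0.07 (95% confidence interval -0.39 to 0.54, adjusted p = 0.791), but this value turned to -0.68 with median centring (adjusted p = 0.0169) and -0.89 with quantile normalization (adjusted p = 0.00612). Immature granule genes were likewise highest in bone marrow, and their part in the Ada values was not tested.

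Because Entpd1 and Nt5e act in sequence and Ada removes their product, their RNA was also set side by side within each library, per exon kilobase, so that library scaling cancels. Entpd1 exceeded Nt5e by 3.92 to 4.52 times in bone marrow, 102 to 159 times in blood and 4.03 to 5.69 times in the tumor. Blood libraries therefore had the most lopsided ratio, without overlap, and bone marrow and tumor overlapped. The size of the Entpd1 excess depends on the length used. Mean deposited log2 FPKM of Entpd1 against Nt5e was 1.32 against 1.43 in bone marrow, 3.43 against -1.50 in blood and 1.84 against 1.69 in the tumor. The ratio of Nt5e to Ada was 0.485 to 0.590 in bone marrow, against 0.290 to 0.512 in blood and 2.57 to 3.74 in the tumor. By this measure Nt5e RNA exceeded Ada RNA only in the tumor libraries, in 3 of 3. That order depends on the length used. Before division by length, Nt5e gave more reads than Ada in every library. By deposited log2 FPKM it also stood higher in bone marrow (mean 1.43 against 1.14). The part of the other cells in the tumor libraries was not tested. For Entpd1 to Ada the ratios per exon kilobase were 1.90 to 2.47 in bone marrow, against 44.6 to 57.7 in blood and 10.4 to 21.3 in the tumor. These ratios describe RNA, not enzyme activity, and no test was run on them.

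**Figure D2:**
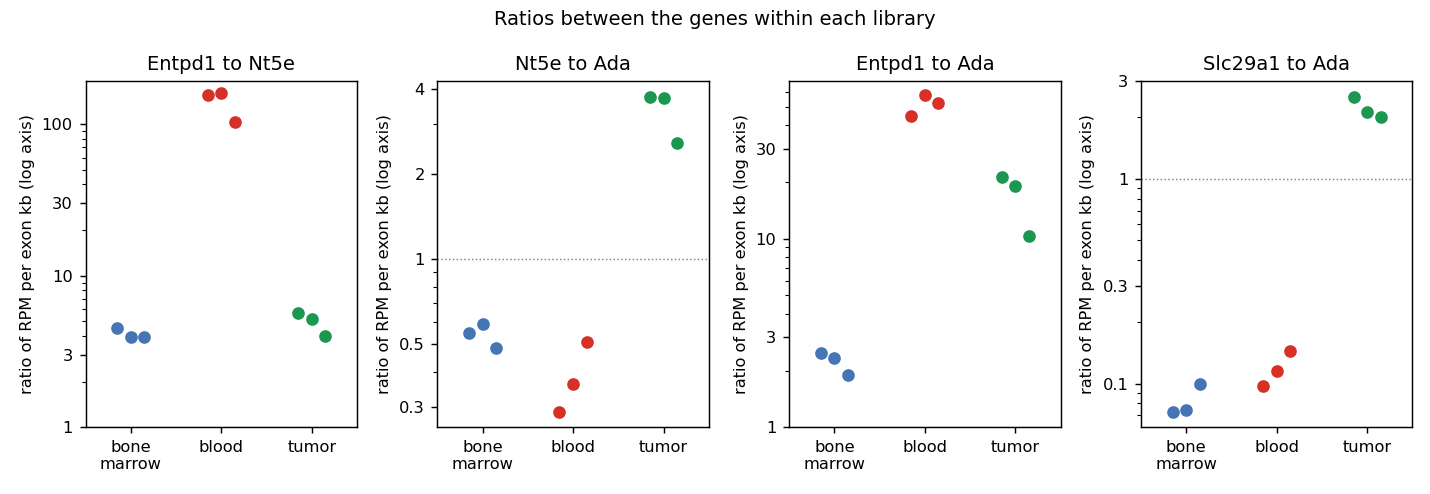
Ratios of RPM per exon kilobase between pairs of the genes within each library (log axes; points are libraries; the dotted line marks equal RNA where it is in range). The Entpd1 to Nt5e ratio reached 102 to 159 in blood, and Nt5e to Ada (2.57 to 3.74) and Slc29a1 to Ada (2.00 to 2.52) exceeded 1 in the tumor libraries only.

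Slc29a1 (ENSMUSG00000023942.14, chr17:45585200-45599606, minus strand), the equilibrative transporter that moves adenosine down its gradient across the membrane, had the largest difference of the 7 between tumor and blood. Its reads were 46, 45 and 75 in bone marrow, 8, 12 and 13 in blood, and 262, 319 and 412 in the tumor. In RPM the values were 6.88, 7.95 and 11.3 in bone marrow, 2.02, 2.15 and 2.77 in blood, and 42.2, 42.2 and 51.9 in the tumor. No compartment overlapped another. Tumor neutrophil libraries had 19.4-fold more than blood (log2 4.28, SE 0.27, adjusted p = 7.83e-07) and 5.29-fold more than bone marrow (log2 2.40, SE 0.27, adjusted p = 4.49e-05). Blood was 3.67-fold below bone marrow (log2 -1.88, SE 0.27, adjusted p = 0.000453). These calls and directions held in all 23 alternatives, with a range of 3.53 to 4.73 for tumor against blood. Slc29a1 RNA was 0.0729 to 0.144 of Ada RNA per exon kilobase in the bone marrow and blood libraries, and 2.00 to 2.52 times Ada in the tumor. The tumor libraries also had the epithelial, fibroblast and acinar markers given above, whose part in this difference was not tested. Gm17080, which shares the interval, had at most 5 reads in any library.

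**Figure D3:**
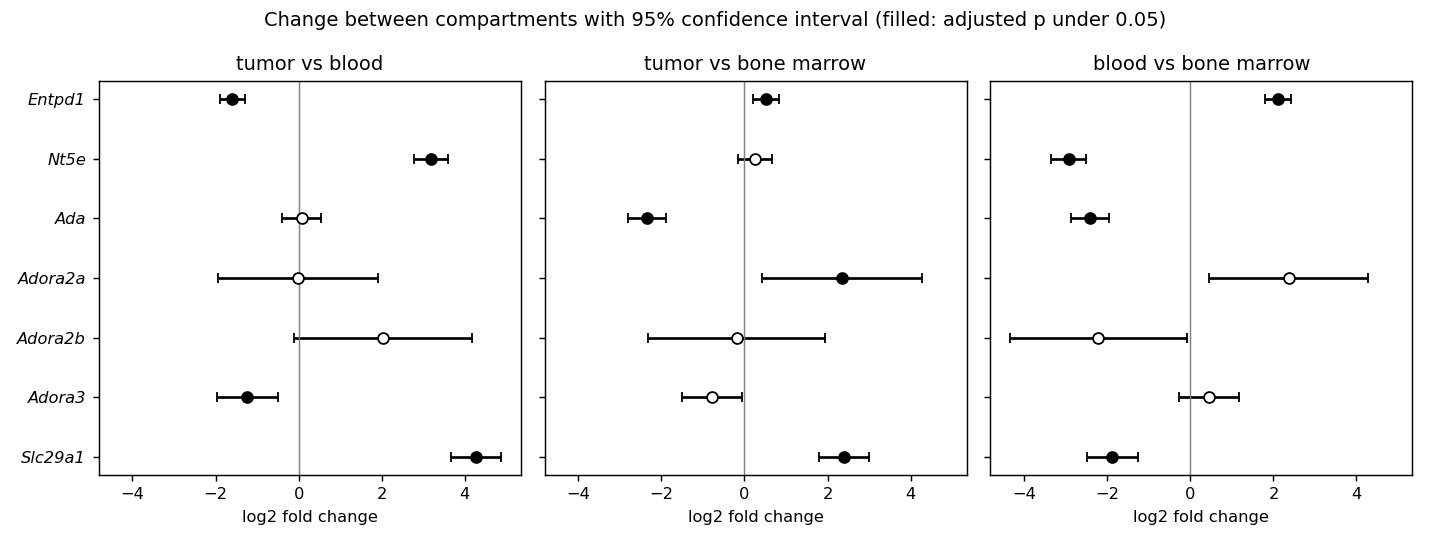
Log2 fold change of each gene in the 3 comparisons (horizontal axis) with its 95% confidence interval from the limma fit; filled points passed an adjusted p of 0.05. Slc29a1 and Nt5e lay farthest to the right for tumor against blood (4.28 and 3.19), and the intervals of Adora2a and Adora2b were the widest.

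The receptors were sparse, so counting error weighed on each of them. Adora2a (ENSMUSG00000020178.5, chr10:75316877-75334784, plus strand), the high-affinity A2 receptor, gave 9, 1 and 1 reads in bone marrow, 13, 7 and 8 in blood, and 12, 21 and 10 in the tumor. That is 1.35, 0.177 and 0.151 RPM in bone marrow, 3.29, 1.25 and 1.71 RPM in blood, and 1.93, 2.78 and 1.26 RPM in the tumor. Bone marrow library 1 lay within the range of the others, so the groups overlapped. The fit called it higher in tumor than in bone marrow (log2 2.34, SE 0.87, adjusted p = 0.0468) and did not call blood against bone marrow (log2 2.36, SE 0.87, adjusted p = 0.0612). In pooled reads the tumor had 43 and bone marrow 11, a scaled ratio of 3.42 (95% exact interval 1.73 to 7.35, which covers counting error only, since reads without molecular identifiers are not separate molecules). The tumor call was lost in 12 of 22 alternatives, among them leaving out bone marrow library 2 or 3 (log2 1.92 and 1.83), blood library 2 or 3, or any tumor library, with adjusted p from 0.00709 to 0.4 over all 22. Blood against bone marrow gained a call in 4 of 22 alternatives, among them leaving out bone marrow library 1 (log2 3.29, adjusted p = 0.0115). The others were a filter of 10 reads in 3 libraries (adjusted p = 0.042), a constant of 1 read (0.048) and median centring (0.0393). Tumor and blood were not told apart (log2 -0.02, 95% confidence interval -1.94 to 1.90, adjusted p = 0.991), and this sign flipped with plain library totals (0.42).

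Adora2b (ENSMUSG00000018500.2, chr11:62248984-62266453, plus strand), the low-affinity A2 receptor, gave 67, 20 and 49 reads in bone marrow, 16, 1 and 14 in blood, and 40, 61 and 27 in the tumor. Its RPM were 10.02, 3.53 and 7.38 in bone marrow, 4.05, 0.179 and 2.99 in blood, and 6.45, 8.07 and 3.40 in the tumor. Blood library 2 stood apart with its single read, and the groups overlapped. No comparison passed: tumor against blood gave log2 2.03 (SE 0.97, adjusted p = 0.0977) and blood against bone marrow -2.22 (SE 0.97, adjusted p = 0.109). Tumor against bone marrow gave -0.19 (95% confidence interval -2.32 to 1.95, adjusted p = 0.89), a sign that flipped with plain library totals (0.26). Without blood library 1 both blood comparisons passed, with log2 2.81 for tumor against blood (adjusted p = 0.0388) and -2.996 for blood against bone marrow (adjusted p = 0.049). Without blood library 2, the library with 1 read, the values shrank to 0.69 (adjusted p = 0.35) and -0.87 (adjusted p = 0.316). Pooled over libraries, 128 tumor and 31 blood reads gave a scaled ratio of 2.71 (95% exact interval 1.82 to 4.15, counting error only).

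Adora3 (ENSMUSG00000000562.5, chr3:105870858-105908926, plus strand), the receptor coupled to inhibitory G proteins, had the smallest spread of the 3 receptors within compartments (SD 0.11 to 0.22 on the log2 scale). Reads were 30, 31 and 31 in bone marrow, 28, 34 and 32 in blood, and 15, 25 and 22 in the tumor. In RPM they were 4.49, 5.48 and 4.67 in bone marrow, 7.09, 6.09 and 6.82 in blood, and 2.42, 3.31 and 2.77 in the tumor. The 3 ranges were apart, with blood highest and tumor lowest. Tumor libraries had 2.35-fold less than blood (log2 -1.23, SE 0.33, adjusted p = 0.00845), a call lost with plain library totals (log2 -0.79, adjusted p = 0.0643). Neither tumor against bone marrow (log2 -0.78, SE 0.33, adjusted p = 0.0731) nor blood against bone marrow (0.45, SE 0.33, adjusted p = 0.352) passed. The former did pass without tumor library 2 (log2 -0.90, adjusted p = 0.0338) and with median centring (-1.26, adjusted p = 0.00918). Groups without overlap were seen for 59.4%, 55.7% and 45.2% of all genes in the tumor against blood, tumor against bone marrow and blood against bone marrow comparisons, and for 4, 4 and 5 of the 7. Adora3 overlaps Tmigd3, which had 22 to 35 reads in bone marrow, against 16 to 36 in blood and 1 to 9 in the tumor, so their reads may not be fully separated.

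Per exon kilobase, the 3 receptors together came to 3.44 to 7.07 RPM in bone marrow, against 2.14 to 5.17 in blood and 2.996 to 6.17 in the tumor, ranges that overlapped. Adora2b made up 61.5% to 73.2% of this sum in the tumor and 55.6% to 76.8% in bone marrow, but 4.54% to 42.5% in blood. Adora3 made up 13.6% to 24.8% in the tumor, 17.0% to 42.7% in bone marrow and 36.8% to 76.3% in blood. The share of Adora2a was 0.928% to 6.21% in bone marrow, against 13.9% to 20.8% in blood and 13.2% to 14.7% in the tumor.

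**Figure D4:**
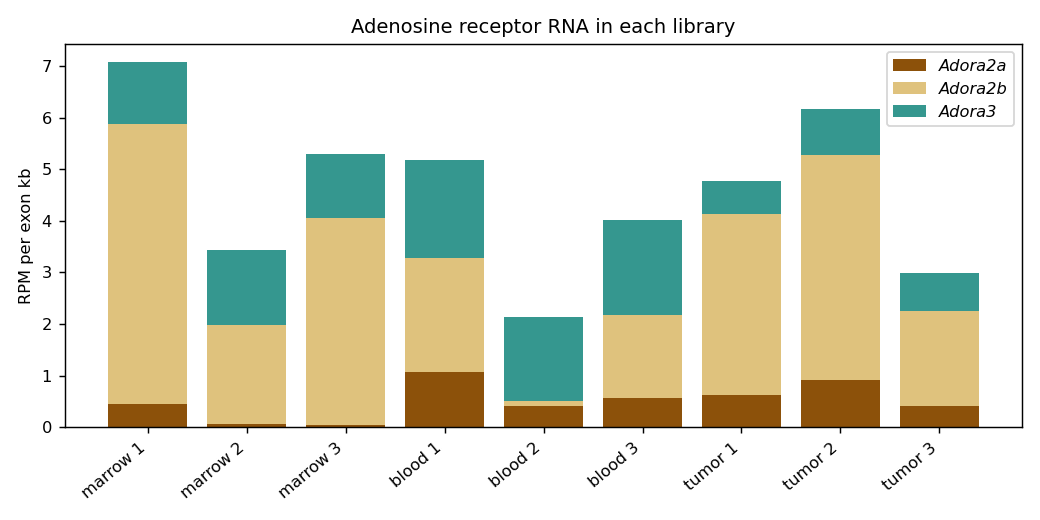
Stacked RPM per exon kilobase of Adora2a, Adora2b and Adora3 in each of the 9 libraries (vertical axis; 1 bar per library). Adora2b formed the largest share in bone marrow and tumor bars (55.6% to 76.8%) and was nearly missing from blood library 2 (4.54%).

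Ordered by mean RPM per exon kilobase, bone marrow ran Entpd1 (58.0 ± 4.08, SD, n = 3), Ada (26.2 ± 2.45), Nt5e (14.1 ± 1.47), Adora2b (3.78 ± 1.77), Slc29a1 (2.17 ± 0.575), Adora3 (1.31 ± 0.142) and Adora2a (0.182 ± 0.223). Entpd1, Ada and Nt5e stood apart by more than their spread, whereas the library ranges of Adora2b and Slc29a1 overlapped. In blood the order was Entpd1 (250.1 ± 18.6), Ada (4.88 ± 0.275), Nt5e (1.88 ± 0.506), Adora3 (1.79 ± 0.139), Adora2b (1.30 ± 1.08), Adora2a (0.680 ± 0.349) and Slc29a1 (0.578 ± 0.1). From Nt5e downward the library ranges of neighbours overlapped. In the tumor it was Entpd1 (83.6 ± 14.5), Nt5e (16.9 ± 1.37), Slc29a1 (11.3 ± 1.39), Ada (5.21 ± 1.17), Adora2b (3.24 ± 1.28), Adora3 (0.759 ± 0.12) and Adora2a (0.650 ± 0.248). The library ranges of Ada and Adora2b overlapped there, although Ada was the higher in 3 of 3 libraries, and those of Adora3 and Adora2a overlapped too. By mean, Slc29a1 was the last of the 7 in blood and the third in the tumor.

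The wider purine network was read from 5 lists with 77 other genes, 74 of them tested. Between tumor and blood 51 were called (32 higher, 19 lower, 68.9% beside 54.9% of all genes), between tumor and bone marrow 45 (26 higher, 19 lower, 60.8% beside 46.5%), and between blood and bone marrow 26 (13 higher, 13 lower, 35.1% beside 31.8%). Of the 74, 9 reached 5 reads in 1 compartment only, so that the filter kept them for being high there and their calls are no support for a direction. Without them 45 of 65 were called between tumor and blood (26 higher, 19 lower), 39 between tumor and bone marrow (20 and 19) and 26 between blood and bone marrow (13 and 13). Over all genes the same restriction left 57.3%, 47.2% and 38.8% of 13838 called. In tumor against blood 4368 of these were higher and 3568 lower (median log2 change 0.17 over all 13838). In tumor against bone marrow 3205 were higher and 3323 lower (median 0.02), and in blood against bone marrow 2277 and 3087 (-0.11). The counts by list leave the 9 genes out, and these values over all genes are the background for them. The epithelial, fibroblast and acinar markers were highest in the same tumor libraries, and their part in these counts was not tested.

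Of 11 other ectonucleotidases and surface partners, 7 were counted, with 3 higher and 4 lower in tumor than in blood (median log2 change -0.57), and 3 higher and 3 lower against bone marrow (0.81). Enpp1, which splits ATP to AMP and pyrophosphate, had 263 to 635 reads in the tumor, 1 to 7 in bone marrow and 0 to 10 in blood. Entpd2, a close relative of CD39 that makes ADP, had 20 to 31 reads in the tumor and at most 1 elsewhere. Enpp3, which also acts on nucleotides, had 20 to 49 reads in the tumor and at most 1 elsewhere, and Alpl, the tissue-nonspecific phosphatase, 3 to 16 against at most 1. Entpd2, Enpp3 and Alpl are among the genes left out of the counts, so only their reads are given. Entpd3, a CD39 relative named after its values were seen, followed another course: it had 88 to 130 reads in bone marrow, against 674 to 1418 in blood and 750 to 1213 in the tumor. It was higher in blood than in bone marrow (log2 3.56, SE 0.22, adjusted p = 1.6e-06).

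Of 16 genes of ATP release and P2 receptors, which sense ATP, ADP and nucleotide sugars, 13 were counted. In tumor against blood 5 were higher and 4 lower (median 0.12), against bone marrow 8 higher and 2 lower (0.89), and in blood against bone marrow 4 higher and 0 lower (0.37). P2ry14, the UDP-sugar receptor, had 267 to 640 reads in the tumor, 7 to 17 in bone marrow and 12 to 26 in blood (log2 4.13 against blood, SE 0.50, adjusted p = 5.36e-05). Gja1, a connexin whose hemichannels release ATP, had 162 to 168 reads in the tumor, at most 12 in bone marrow and at most 4 in blood. P2rx1, an ATP-gated channel of neutrophils and platelets, was lower in tumor than in blood (log2 -3.44, SE 0.25, adjusted p = 1.69e-06), with 23 to 40 reads against 163 to 323. Platelet markers were highest in blood, and their part in the P2rx1 and P2ry1 values was not tested. P2ry1, an ADP receptor, was also lower (log2 -2.34, SE 0.21, adjusted p = 6.69e-06), with 37 to 75 reads against 148 to 211. In bone marrow P2rx1 had 191 to 222 reads and P2ry1 172 to 210. Both were called lower in the tumor than there too (log2 -2.98 and -1.97).

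Inside the cell, 10 of 17 genes of adenosine and purine salvage were higher in tumor than in blood and 4 lower (median 0.84), against 3 higher and 7 lower beside bone marrow (-0.05). In blood against bone marrow 2 were higher and 8 lower (-0.58). Mtap, which salvages methylthioadenosine, had 322 to 623 reads in the tumor, 18 to 42 in bone marrow and 14 to 24 in blood (log2 4.01 against blood, SE 0.34, adjusted p = 4.95e-06). Ahcy, which frees adenosine from S-adenosylhomocysteine, had 164 to 265 reads in the tumor, 86 to 111 in bone marrow and 13 to 37 in blood (log2 2.82 against blood, SE 0.31, adjusted p = 2.61e-05). Ak1, an adenylate kinase, and Nt5c1a, a cytosolic AMP nucleotidase, had 22 to 42 and 7 to 8 reads in the tumor and at most 2 elsewhere. Both are among the genes left out of the counts.

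Of the other adenosine receptor and nucleoside transporters 4 were counted, with 1 higher and 1 lower in tumor against blood and against bone marrow. Adora1, the A1 receptor, had 12 to 38 reads in the tumor, 0 to 4 in bone marrow and 0 to 2 in blood, and is left out of the count. Slc28a3, a concentrative transporter and the higher gene counted, had 3 to 20 reads in the tumor, 0 to 5 in bone marrow (where 1 library just reached the filter) and none in blood. Slc28a2, the concentrative transporter of purine nucleosides, moved the other way from Slc29a1: it had 1564 to 1841 reads in bone marrow, against 1821 to 2671 in blood and 393 to 619 in the tumor. It was lower in the tumor than in blood (log2 -2.84, SE 0.14, adjusted p = 1.7e-07) and than in bone marrow (-2.06). Slc28a1 had no read.

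Of 24 genes of cAMP signalling, through which A2 receptors act, 7 were higher and 6 lower in tumor against blood (median 0.44). Against bone marrow 5 were higher and 6 lower (-0.04), and in blood against bone marrow 4 higher and 3 lower (-0.08). Pde4d, a cAMP phosphodiesterase, had 106 to 199 reads in bone marrow, against 3 to 14 in blood and 178 to 323 in the tumor (log2 4.13 for tumor against blood, SE 0.51, adjusted p = 6.43e-05). Pde4a, of the same family, was higher in tumor than in blood (log2 2.07, SE 0.53, adjusted p = 0.00675), except with quantile normalization (0.95, adjusted p = 0.175). Prkar2b, a regulatory subunit of protein kinase A, was lower (log2 -2.10, SE 0.29, adjusted p = 0.000137), with 45 to 146 reads in the tumor and 173 to 254 in blood. Rapgef3, a cAMP-activated exchange factor, had 7 to 84 reads in the tumor and at most 1 in blood. Its call was lost without blood library 2 or 3 or tumor library 2 or 3 (log2 4.54 to 5.60, adjusted p from 0.0562 to 0.106).

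**Figure D5:**
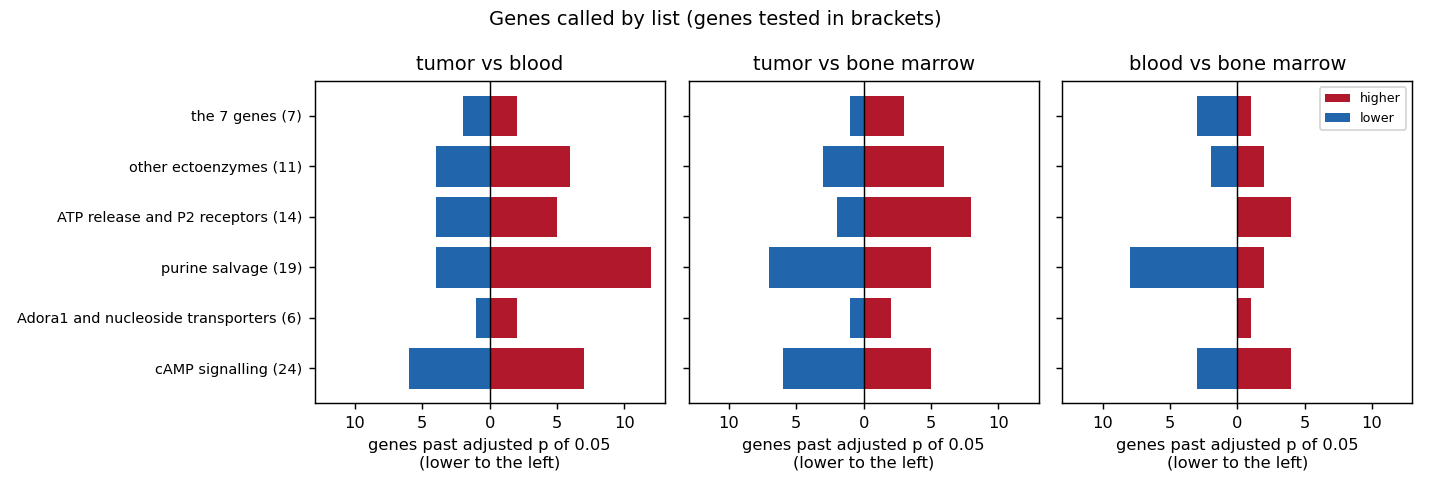
Number of genes per list past an adjusted p of 0.05 in each comparison, higher to the right in red and lower to the left in blue, with the genes tested in brackets; unlike the counts in the text, the bars include the 9 genes that reached 5 reads in 1 compartment only. With those, purine salvage had 12 higher and 4 lower in tumor against blood, and 5 higher and 7 lower in tumor against bone marrow.

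Among 8257 genes with a mean of at least 50 reads, those most like each adenosine gene across the 9 libraries were ranked by Pearson r of log2 FPKM, a description over 9 points that share 3 compartments. Entpd1 was most like Fgl2 (0.998), Pttg1 (0.996) and Sirpb1a (0.993), all highest in blood. Genes like Nt5e included Anln (0.990) and Col5a1 (0.989), and Ada was most like Hvcn1 (0.991), Kcnab2 (0.988) and Eml2 (0.987). Slc29a1 was most like Calu (0.993), Axl (0.991) and Ptcd3 (0.990). The receptors were most like Nbeal1 (0.954, Adora2a), Nol7 (0.935, Adora2b) and Pag1 (0.990, Adora3). Among the 7 themselves, Entpd1 and Nt5e had an r of -0.927, Adora3 and Slc29a1 -0.955, and Nt5e and Slc29a1 0.861.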

How the data were processed

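Neutrophils of 9 libraries (3 per compartment) were profiled by SMART-seq2 and paired-end sequencing. Per the labels and the study's methods, the authors aligned reads to GRCm38/mm10 with STAR 2.5.2b, counted genes with featureCounts 1.5.0 on GENCODE M7 and used edgeR 3.8.6 (versions from the submitters' processing notes). The authors deposited log2 FPKM values, 1 column per library. For 84.5% of 46005 annotated identifiers the length in them was the genomic span (GENCODE M21 on GRCm38), so that levels of different genes were compared per exon kilobase, the union of M21 exons. Strand use in counting was not given in the sources used here. Whether the recovered reads include introns was not tested. If they do, levels per exon kilobase are raised for genes with long introns. Whole reads were recovered from the steps between values in all 46517 genes (tolerance 1e-05 read). The constant before the log was about 0.221 read at mean library size.

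Genes with at least 5 recovered reads in at least 1 library (17714) were tested with limma 3.58.1 (R 4.3.3) on the deposited log2 values, all libraries together, with a variance trend on mean log2 RPM. Benjamini-Hochberg adjustment ran over all of them, and fold changes of genes with few reads are understated by the constant. RPM are recovered reads per 1000000 reads of the library, after the authors' scaling. The procedure was tested on simulated data.

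The members and lists were chosen with earlier results of these data known. Named were all 7 members, the 4 genes of each list with the largest absolute log2 change in tumor against blood among those called, and the 3 genes most like each member (1 of those for Nt5e is not reported here). Alternatives covered filters, constants, scalings, limma-voom on the recovered reads, priors, a replicate block and each library left out. Libraries of a group differed beyond sampling noise. The labels do not say that same-numbered libraries share mice, and p-values measure the spread between 3 pools per compartment.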

Additional observations from a re-analysis of the deposited data

How the results depend on the processing

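Every called difference of the 7 genes kept its direction in all alternatives (filters, constants, scalings, voom, priors, replicate block, libraries left out), and so did the 21 results of other named pathway genes, of which 3 lost their call under some alternative (Nt5c1a, Rapgef3, Pde4a). Calls among the 7 genes in tumor against bone marrow numbered 2 to 4 with a library left out (2 without tumor library 1, when Entpd1 and Adora2a dropped out), 4 to 5 in tumor against blood and in blood against bone marrow. For the other pathway genes these ranges were 34 to 46, 45 to 52 and 21 to 29. Requiring log2 FPKM over 0 in at least 3 libraries removed the 3 receptors from testing and left 27 pathway genes called in tumor against blood and 26 in tumor against bone marrow. Over all genes that filter gave 4926, 4366 and 3544 calls in tumor against blood, tumor against bone marrow and blood against bone marrow, beside 9731, 8229 and 5635. Requiring an absolute log2 change of at least 1 left 17 pathway genes in blood against bone marrow. Leaving out genes that reached 5 reads in 1 compartment only, chosen after seeing the data, gave 4 calls of the 7 genes in each comparison and 45, 39 and 26 pathway calls.

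The sign reversed only where no call had been made. Tumor against blood gave Ada -0.68 with median centring, -0.89 with quantile normalization and -0.10 to 0.22 with a library left out. It gave Adora2a 0.42 with plain totals and -0.32 to 0.36 with a library left out (0.36 without blood library 1, 0.27 without tumor library 3). Tumor against bone marrow gave Nt5e -0.22 with median centring, and Adora2b 0.26 with plain totals and -0.61 to 0.17 with a library left out (0.14 without bone marrow library 1, 0.17 without tumor library 3). The cause was not tested. In blood against bone marrow 57.8% of calls were higher with median centring, beside 43.1%.

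With the replicate number as a block the 7 genes had 4 calls in each comparison, all on the same genes. The pathway lists had 51, 45 and 26, with 44 of the 45 shared (Adcy4 and Rapgef4 changed places) and all others the same. Over all genes it gave 9660, 8185 and 5626. Same-numbered libraries correlated from -0.21 to 0.18 over 8257 genes, 3 of 9 pairs above 0.1, and 1 library correlated best with its own number in both other compartments, so the numbers were not taken as pairs. Depth limits Adora2a and Adora2b, with 1 to 67 reads per library.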
